A study of Mus musculus with 9 samples.

Results

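The genes described here are the mouse major histocompatibility complex (MHC) genes, whose symbols start with H2-, together with 10 genes of antigen processing and MHC control added by name: B2m, Cd74, Ciita, Nlrc5, Tap1, Tap2, Tapbp, Psmb8, Psmb9 and Psmb10. The symbol rule took 33 genes, so that 43 of the 34637 genes listed with an expression level were included. They were measured by RNA sequencing of back skin from mice with dermatitis induced by DNCB (2,4-dinitrochlorobenzene, a contact sensitiser), and the question was whether Fangji Dihuang formulation (FJDHF), a herbal decoction, changed their levels. The FJDHF group had 5 libraries and the Model group, which received DNCB without the formulation, had 4.

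All mice were C57BL/6 males of 6 to 8 weeks. Both groups were sensitised with 1% DNCB on day 1 and painted repeatedly with 0.5% DNCB from day 4 to day 21. FJDHF was given orally after day 7 until day 28, whereas Model mice received water. Unchallenged skin was not analysed here, so the values say nothing of what DNCB itself did. The count columns carry the codes MR (5 columns) and MXL (4 columns), which the sources used here do not explain. MR was taken as FJDHF and MXL as Model because the column numbers match the group sizes and MX matches the Pinyin of "moxing" (model), and every direction below rests on that reading. Codes with several numbers, such as MR3_4 or MXL12, could be pools, and each was counted as 1 library. Since nothing states which column came from which mouse, p-values measure the spread between these libraries.

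MHC class I molecules present peptides from inside the cell to CD8 T cells, while class II molecules present peptides from ingested material to CD4 T cells. Class I peptides are cut by the proteasome, for which the immunoproteasome subunits are an inducible replacement, carried into the endoplasmic reticulum by TAP and loaded with the help of tapasin. Class II chains assemble with the invariant chain CD74 and exchange its remnant for peptide with the help of H2-DM. Nlrc5 and Ciita are the transactivators of class I and class II genes, respectively, and interferon-gamma induces both routes. In skin, Langerhans cells, dendritic cells and macrophages carry class II, whereas nearly every cell carries class I.

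By role, the 43 genes comprised 20 class I heavy chains, of which 2 were classical, 7 of the Q region, 5 of the T region and 6 of the M region, 3 class I pseudogenes, and the class I light chain. They further comprised 4 classical class II chains, 5 class II peptide editors, the invariant chain, 2 transactivators, 3 genes of peptide transport and loading and 3 immunoproteasome subunits. Of the heavy chains counted here, GENCODE annotates H2-Q5 and H2-T10 as polymorphic pseudogenes. H2-Ke6, which the symbol rule also took, encodes a dehydrogenase and is not an MHC gene. In the mm10 build, 38 of the 43 lay on chromosome 17, between chr17:33915899-33926197 (Tapbp) and chr17:37480851-37483552 (H2-M2). Another 12 genes with H2- symbols had 0 counts in each library, among them H2-Ea-ps, the class II alpha chain partner of H2-Eb1 that C57BL/6 mice do not make.

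The libraries held 74648669 to 79474215 counts each. A count of 3 corresponded to 0.0375 to 0.0415 CPM (counts scaled to the library size by trimmed mean of M-values), so that genes such as H2-Aa or Cd74 were limited by the spread between libraries and not by counting. The 43 genes took 0.277% to 0.523% of the counts in FJDHF and 0.277% to 0.458% in Model. Of these genes, 39 passed the filter on low counts. H2-M1, H2-M11, H2-M6-ps and H2-T3 did not. H2-T3 had 3 counts in MR1 alone, and H2-M6-ps had 10 in MXL1, 20 in MXL_3 and 0 elsewhere.

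Libraries differed by the GC content of their transcripts, and in both groups. Over 12916 genes, the Spearman correlation of a library's deviation from the gene mean with transcript GC content was 0.617 in MR3 and 0.596 in MXL1, but -0.673 in MR5 and -0.623 in MXL12. The other 5 libraries lay between -0.424 and 0.327. Because 30 of the 39 genes tested had a GC content of 50% or more, their levels are also given below after each library's GC trend was removed, a correction added after the data were seen.

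Levels per transcript length spanned a wide range. B2m, the light chain that every class I molecule shares, was highest with 1211 ± 274 FPKM (a level per transcript length and library size, SD, n = 5) in FJDHF and 1185 ± 117 FPKM (SD, n = 4) in Model. Cd74 followed with 305 ± 184 FPKM in FJDHF and 255 ± 147 FPKM in Model. Then came the classical class I chains, at 211 ± 57.2 FPKM in FJDHF and 182 ± 61.1 FPKM in Model for H2-D1, and 155 ± 25.3 FPKM and 137 ± 43.8 FPKM for H2-K1. The class II chains H2-Aa, H2-Eb1 and H2-Ab1 averaged 85.7, 57.6 and 23.7 FPKM over all libraries. Of the other class I chains, H2-Q4 (20.1 FPKM), H2-T22 (18.4 FPKM) and H2-T23 (15.3 FPKM) had the highest means. The inhibitory editors H2-Oa and H2-Ob, which B cells are known for, averaged 0.713 and 0.519 FPKM, and H2-Eb2 0.186 FPKM. H2-D1 lay above H2-K1 in each library, though only by 143 against 139 FPKM in MR5. The order of Cd74 and H2-D1 differed between libraries. Cd74 was higher in MR1 (528 against 292 FPKM) and lower in MR5 (76.3 against 143 FPKM).

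**Figure D1:**
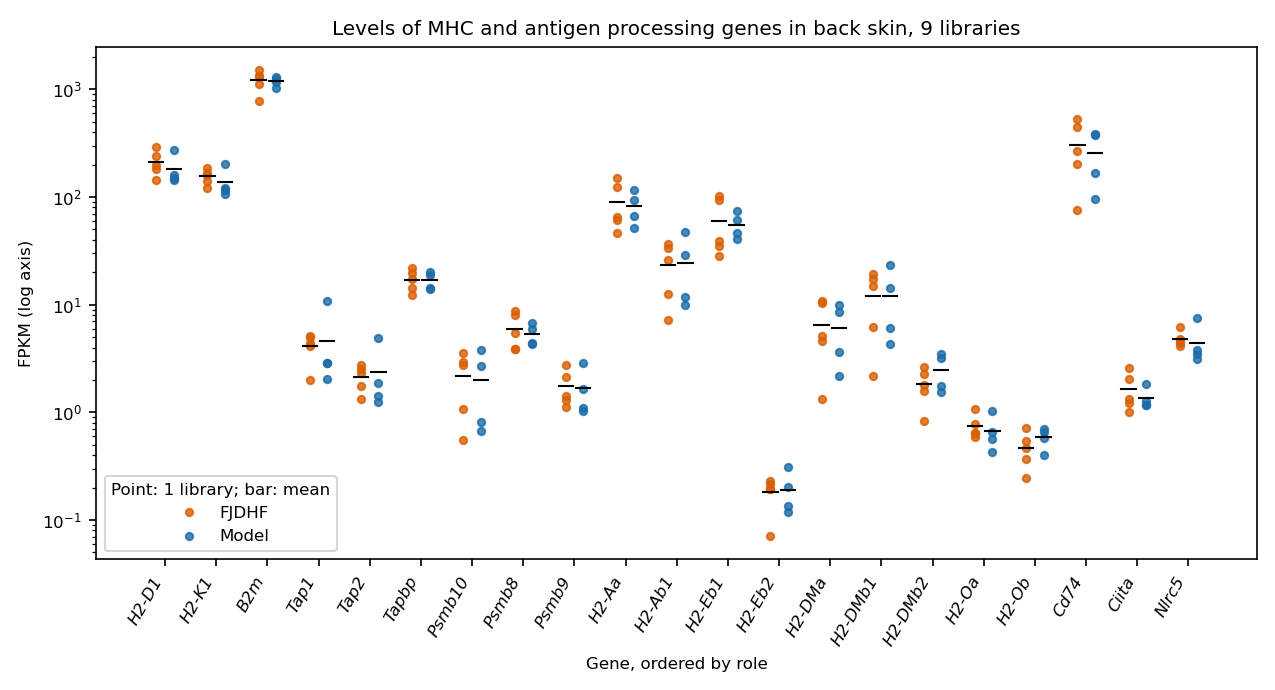
FPKM of 21 genes (log axis) in the FJDHF libraries (orange) and the Model libraries (blue), ordered by role, with 1 point for a library and a bar for the group mean. The points of both groups overlap for each gene, and Cd74 runs from 76.3 FPKM in MR5 to 528 FPKM in MR1.

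Promoter sequences were available for 32 of the 43 genes (RefSeq, GRCm38.p6, 300 bases from 250 before to 50 after a start). They are shown because the class I and class II genes share the control elements through which Nlrc5 and Ciita are known to act. Motifs were searched on both strands. ACNGATG, the core of the X box, was in 9.85% of all 32851 windows and in 15 of the 35 windows of these genes, and ATTGG, the Y box or inverted CCAAT, was in 37.4% of all windows and 29 of the 35. The X core followed on the same strand by the Y core, starting 27 to 33 bases later, occurred in 23 of the 32851 windows (0.07%), and 9 of these 23 belonged to the genes described here, 4 of them class II and 5 class I. Among the other genes with a promoter sequence, H2-K1, B2m, Tap1 and H2-DMa had a Y core but no X core. H2-Aa had both cores, but not in this arrangement. Other versions of the X box and the cyclic AMP response element had been tried before, and the pair and its spacing were chosen after matches had been seen, so the count is a description. The 9 stretches are given 5′ to 3′ with both cores in capitals, and all are on the plus strand of chromosome 17.
H2-DMb2: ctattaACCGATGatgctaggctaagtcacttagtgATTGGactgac
H2-DMb1: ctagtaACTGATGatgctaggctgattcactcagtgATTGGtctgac
H2-Eb1: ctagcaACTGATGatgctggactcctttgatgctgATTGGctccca
H2-Eb2: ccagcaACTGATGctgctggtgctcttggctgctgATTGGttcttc
H2-D1: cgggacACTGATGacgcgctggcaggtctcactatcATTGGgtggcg
H2-Q4: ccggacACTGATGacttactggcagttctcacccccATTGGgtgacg
H2-Q6: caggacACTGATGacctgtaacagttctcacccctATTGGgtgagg
H2-Q7: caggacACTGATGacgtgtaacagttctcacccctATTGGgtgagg
H2-M3: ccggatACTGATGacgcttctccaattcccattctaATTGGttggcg

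They lie at chr17:34145123-34145169 (H2-DMb2), chr17:34153094-34153140 (H2-DMb1), chr17:34305773-34305818 (H2-Eb1), chr17:34325540-34325585 (H2-Eb2), chr17:35262982-35263028 (H2-D1), chr17:35379502-35379548 (H2-Q4), chr17:35424736-35424781 (H2-Q6), chr17:35439080-35439125 (H2-Q7) and chr17:37270177-37270223 (H2-M3). In each, the cores start 29 or 30 bases apart, and the X core starts between 51 and 129 bases before the annotated start. The core of the interferon-stimulated response element, GAAA repeated after 2 bases of any kind, was in 3.44% of all windows and in those of B2m, H2-T22 and H2-T23. In B2m it starts 139 bases before the start (chr2:122147538-122147567, plus strand) and is shown in capitals.
B2m: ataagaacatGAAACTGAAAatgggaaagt

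With these libraries, no MHC or antigen processing gene separated the FJDHF and Model groups after adjustment. The quasi-likelihood test of edgeR called none of the 39 genes at an adjusted p below 0.05, and DESeq2 and limma also called 0. Over all 20817 genes tested, edgeR called 0 (0%), and 319 (1.53%) had an unadjusted p below 0.05, 161 higher in FJDHF (0.773%) and 158 lower (0.759%). Of the 39 genes, 1 (2.56%) had an unadjusted p below 0.05, H2-M2, which was lower in FJDHF. Hence its count lies near the background of all genes. In all, 22 genes had higher and 17 lower estimates in FJDHF, with a median log2 fold change of 0.03 against -0.03 over all genes tested, and 36 of the 39 lay within 0.5 of zero. The groups did not overlap for 0 of the 39, compared with 0.514% of all genes.

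**Figure D2:**
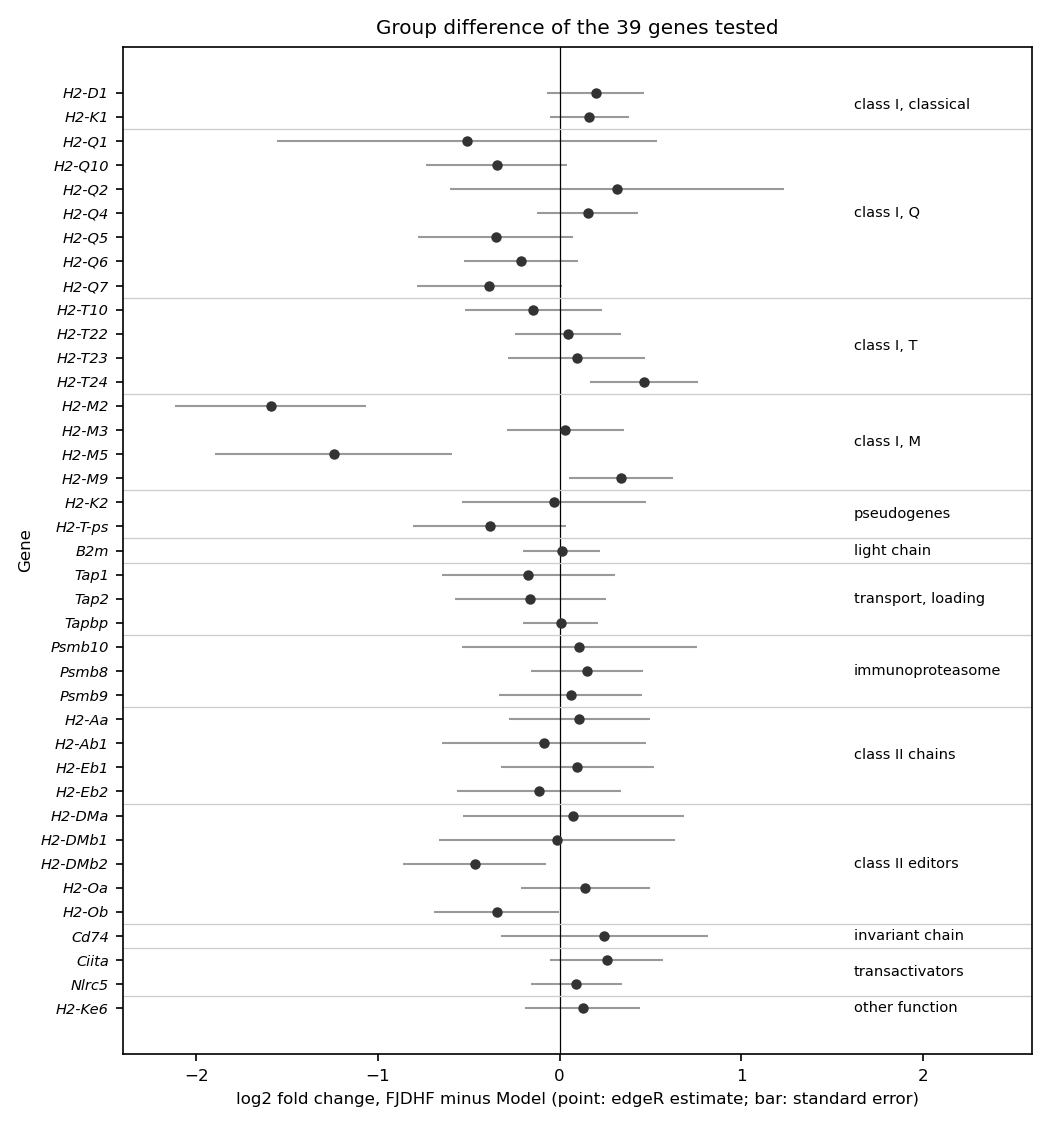
Log2 fold change (FJDHF minus Model, edgeR) of the 39 genes tested with its standard error, grouped by role. All but H2-M2 (-1.59), H2-M5 (-1.24) and H2-Q1 (-0.51) lie within 0.5 of zero.

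The classical class I chains and their light chain were close in the 2 groups. H2-K1 measured 586, 364, 512, 499 and 421 CPM in the FJDHF libraries MR1, MR3, MR3_4, MR4_5 and MR5, and 609, 379, 367 and 346 CPM in the Model libraries MXL1, MXL12, MXL3_4 and MXL_3. The highest library was MR1 in FJDHF and MXL1 in Model, and the others lay between 346 and 512 CPM. The log2 fold change was 0.16 ± 0.22 (SE; edgeR, adjusted p = 1), with a 95% interval from -0.32 to 0.65. H2-D1 measured 801, 474, 678, 518 and 379 CPM in FJDHF against 723, 394, 413 and 457 CPM in Model, with a log2 fold change of 0.20 ± 0.26 (interval -0.39 to 0.79). B2m ranged from 684 CPM in MR3 to 1371 CPM in MR1, and its 4 Model libraries fell inside that range, at 1102, 1173, 1085 and 968 CPM. Its log2 fold change was 0.01 ± 0.21 (interval -0.46 to 0.48).

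Among the non-classical class I chains, those of the Q, T and M regions, H2-M2 differed most. It measured 1.67, 0.437, 1.64, 0.428 and 0.892 CPM in FJDHF and 2.37, 3.27, 1.51 and 5.08 CPM in Model. Thus 3 of the 4 Model libraries exceeded each FJDHF library, while MXL3_4 fell below MR1 and MR3_4. These levels rest on 34 to 126 counts in FJDHF and 117 to 367 in Model. The log2 fold change was -1.59 ± 0.52 (interval -2.75 to -0.43; edgeR, unadjusted p = 0.0122, adjusted p = 1). An exact two-sided permutation test over the 126 assignments of libraries to the groups gave p = 0.0476 (adjusted p = 1 over all genes), where 0.00794 is the smallest p that test can give and 1.93% of all genes had a p below 0.05. With 1 library left out at a time, the edgeR p stayed below 0.05, up to 0.0456 without MXL_3. The permutation p stayed below 0.05 without MXL3_4 (p = 0.0357, exact test) and in none of the other 8 cases.

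H2-M5, also of the M region, measured 0.677, 1.01, 1.20, 0.0756 and 0.331 CPM in FJDHF and 2.48, 1.23, 0.813 and 1.72 CPM in Model. MXL3_4 again fell among the FJDHF libraries. Its log2 fold change was -1.24 ± 0.65 (edgeR, unadjusted p = 0.0854; exact permutation p = 0.0714). The other 2 M-region genes tested went the other way or were level, H2-M9 (4.58 to 8.80 CPM in FJDHF, 3.59 to 7.22 CPM in Model) at 0.34 ± 0.29 and H2-M3, which presents formylated peptides, at 0.03 ± 0.32. The M region therefore did not move as a block.

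Ccr7, the chemokine receptor by which mature dendritic cells leave the skin, was the member of the 8 dendritic cell markers with the smallest p. Its counts were 16, 18, 15, 27 and 44 in FJDHF and 65, 85, 41 and 83 in Model. The log2 fold change was -1.55 ± 0.44 (edgeR, unadjusted p = 0.00515, adjusted p = 1). Of the 8 dendritic cell markers 6 were lower and 2 higher in FJDHF, with none at 0 in all libraries and a summed level of 38.6 to 72.5 CPM in FJDHF and 54.4 to 75.6 CPM in Model. By counts, the lowest Model library was MXL3_4 for Ccr7, as for H2-M2, and also for Itgax and Clec9a. It was MXL_3 for Flt3 and Xcr1, MXL1 for Zbtb46 and Cd209a, and MXL12 for Batf3. Of the 2 Langerhans cell markers, Cd207 had a log2 fold change of -0.48 ± 0.47 and Epcam one of 0.02 ± 0.31. Whether dendritic cell numbers play a part in the H2-M2 values was not tested, and in whole skin fewer cells of a type and less RNA per cell cannot be told apart.

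Of the remaining class I chains, H2-T24 had the largest estimate toward FJDHF. It measured 13.9, 6.66, 11.1, 7.83 and 8.03 CPM in FJDHF and 5.15, 8.26, 5.17 and 8.96 CPM in Model, so that 2 Model libraries lay among the FJDHF values, and its log2 fold change was 0.47 ± 0.30. H2-Q1 at -0.51 ± 1.04 and H2-Q2 at 0.32 ± 0.92 had wide errors. H2-Q1 had 0 counts in MR3 and 484 in MXL1, and H2-Q2 had 0 counts in MR3_4 and at most 21 elsewhere. The 3 with the highest FPKM were nearly level, H2-Q4 (39.2 to 76.8 CPM in FJDHF, 40.2 to 80.1 CPM in Model) at 0.15 ± 0.28, H2-T22 (45.1 to 93.3 CPM, 45.0 to 101 CPM) at 0.05 ± 0.29 and H2-T23, the mouse Qa-1 chain that engages natural killer cell receptors (29.4 to 70.9 CPM, 24.8 to 81.5 CPM), at 0.10 ± 0.38. H2-Q5, H2-Q6, H2-Q7 and H2-Q10 lay between -0.39 and -0.21, and H2-T10 at -0.14 ± 0.38. MXL1 was the highest library for H2-Q5, H2-Q6 and H2-Q7 (6.63, 60.3 and 45.1 CPM). With 1 library left out at a time, their estimates reached 0.39, 0.22 and 0.32, so the sign was not kept. The pseudogenes H2-K2 and H2-T-ps were at -0.03 ± 0.51 and -0.38 ± 0.42, and H2-Ke6 at 0.13 ± 0.32, although 94.2% of its 75-base stretches recur in the overlapping Gm20427. Reads from this family can be shared. Between 12.1% and 20.7% of the 75-base stretches of H2-Q1, H2-Q5, H2-Q6, H2-Q7, H2-Q10, H2-T10 and H2-T22 recur in other genes, so their separate values are uncertain, whereas 6.9% of H2-D1 and 1.33% of H2-K1 recur. These stretches are shorter than the read pairs the paper describes, so the shares do not give the part of reads that is ambiguous.

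The genes that supply class I peptides had equally small group differences. Tap1 measured 29.1, 22.9, 26.2, 28.7 and 11.3 CPM in FJDHF and 60.7, 11.8, 16.8 and 17.2 CPM in Model. MXL1 was the highest library, and MR5 and MXL12 were lowest. For Tap1 the log2 fold change was -0.17 ± 0.48. Tap2, the partner of Tap1 in the transporter, measured 11.0, 9.76, 9.57, 6.75 and 5.22 CPM against 19.2, 4.98, 5.77 and 7.83 CPM, again with MXL1 highest, and its log2 fold change was -0.16 ± 0.42. Tapbp, which encodes tapasin, measured 84.2, 53.2, 78.1, 64.03 and 46.0 CPM against 74.7, 55.1, 54.8 and 74.5 CPM (log2 fold change 0.01 ± 0.21). Tapbp was thus the steadiest of the 3, with its highest library 1.83-fold above its lowest. Of the immunoproteasome subunits, Psmb8 measured 28.9, 13.5, 32.5, 18.6 and 13.6 CPM in FJDHF and 23.5, 15.4, 16.1 and 22.2 CPM in Model. Psmb9 measured 10.7, 4.91, 8.62, 5.31 and 4.23 CPM against 10.9, 3.98, 4.32 and 6.67 CPM. Psmb10 measured 5.03, 6.26, 5.54, 1.90 and 0.994 CPM against 6.75, 1.24, 1.54 and 5.09 CPM. Psmb10 spanned 6.8-fold across libraries, more than Psmb8 (2.42-fold) or Psmb9 (2.74-fold), and their log2 fold changes were 0.11 ± 0.65, 0.15 ± 0.31 and 0.06 ± 0.39. The exons of Tap1 and Psmb9 overlap on opposite strands, and whether the counting used strand is not given in the sources used here.

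Class II genes varied far more between libraries than between groups. Cd74 measured 942, 454, 829, 347 and 132 CPM in FJDHF and 642, 170, 298 and 712 CPM in Model. Hence both the highest library (MR1) and the lowest (MR5) were FJDHF libraries, 7.16-fold apart, and Model lay inside that range. Between the groups, Cd74 had a log2 fold change of 0.25 ± 0.57 (interval -1.02 to 1.51; edgeR, adjusted p = 1). H2-Aa measured 601, 237, 513, 249 and 182 CPM in FJDHF and 365, 207, 270 and 480 CPM in Model, with a log2 fold change of 0.11 ± 0.39. H2-Eb1 measured 209, 69.7, 199.8, 76.9 and 56.4 CPM against 121, 83.2, 95.9 and 157 CPM, with a log2 fold change of 0.10 ± 0.42. MR1 and MR3_4 were the 2 highest libraries for Cd74, H2-Aa and H2-Eb1, and MR5 was the lowest. H2-Ab1 measured 98.9, 67.3, 94.8, 32.8 and 19.2 CPM against 123, 27.3, 32.2 and 82.4 CPM, with MXL1 highest, and its log2 fold change was -0.08 ± 0.56. H2-Eb2 measured 0.783, 0.25, 0.73, 0.806 and 0.688 CPM against 0.417, 0.49, 0.748 and 1.16 CPM, with 20 to 84 counts, and had a log2 fold change of -0.11 ± 0.45.

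Of the editors, H2-DMa and H2-DMb1 also varied widely between libraries. H2-DMb2 (4.2-fold from lowest to highest library), H2-Ob (2.99-fold) and H2-Oa (2.54-fold) varied less. H2-DMa measured 39.3, 17.9, 39.0, 16.3 and 4.73 CPM in FJDHF and 30.1, 8.01, 13.4 and 37.5 CPM in Model. H2-DMb1 measured 34.5, 25.6, 31.6, 10.7 and 3.73 CPM against 40.7, 7.60, 10.9 and 26.5 CPM. Both chains of H2-DM were lowest in MR5 and next lowest in MXL12, and the highest library exceeded the lowest 8.32-fold and 10.9-fold. Their log2 fold changes were 0.07 ± 0.61 and -0.01 ± 0.65. The other beta chain gene, H2-DMb2, measured 4.20, 3.22, 5.04, 1.49 and 2.87 CPM in FJDHF and 6.25, 3.27, 2.92 and 6.16 CPM in Model (log2 fold change -0.47 ± 0.39). The inhibitory editors were low. H2-Oa measured 1.65, 0.937, 1.21, 0.856 and 0.943 CPM against 0.822, 0.648, 0.993 and 1.59 CPM, and H2-Ob measured 4.10, 2.02, 2.76, 1.37 and 3.03 CPM against 3.67, 2.30, 4.08 and 3.46 CPM. Their groups overlapped, with log2 fold changes of 0.14 ± 0.36 and -0.35 ± 0.34. H2-DMb1 and H2-DMb2 share 19.1% and 19.9% of their 75-base stretches with other genes, so that part of their separate values is uncertain too.

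Ciita, the class II transactivator, measured 26.0, 11.9, 21.5, 9.76 and 13.0 CPM in FJDHF and 18.04, 11.8, 13.0 and 12.2 CPM in Model. MR1 and MR3_4, which had the most Cd74, had the most Ciita, whereas MR5, with the least Cd74, had a middling level. The log2 fold change was 0.26 ± 0.31. Nlrc5 measured 40.2, 39.8, 38.3, 53.1 and 41.7 CPM in FJDHF and 65.2, 31.2, 34.2 and 29.1 CPM in Model. Apart from MXL1, each Model library was below each FJDHF library. The log2 fold change was 0.09 ± 0.25 (edgeR, unadjusted p = 0.715), and without MXL1 it was 0.44 (unadjusted p = 0.0253, adjusted p = 0.984).

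**Figure D3:**
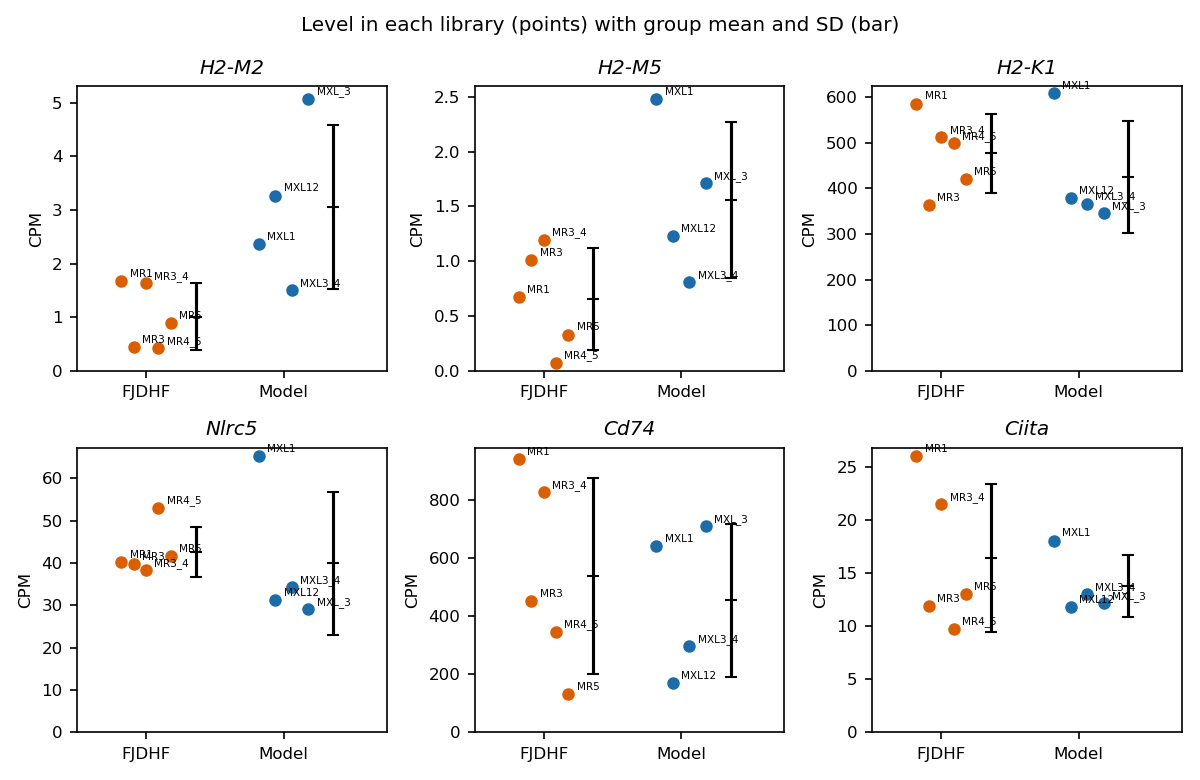
CPM (linear axes from 0) of 6 genes in each library, with group mean and SD as a bar, for FJDHF (orange) and Model (blue). H2-M2 and H2-M5 are lower in FJDHF with MXL3_4 among the FJDHF values, MXL1 stands above the other Model libraries for H2-K1 and Nlrc5, and Cd74 and Ciita are highest in MR1.

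Many genes of a role shared the differences between libraries, but not each gene did. In MR5, H2-DMb1 deviated by -2.04 (log2) from its mean over the libraries, but H2-Ob by 0.08 and H2-Eb2 by 0.05. For the 10 class II chains, editors and invariant chain, the median deviation from the gene mean was 0.90 (log2) in MR1, 0.76 in MR3_4, 0.61 in MXL_3 and 0.47 in MXL1, and -0.86 in MR5, -0.52 in MXL12, -0.42 in MR4_5, -0.26 in MXL3_4 and -0.13 in MR3. Each group thus held libraries at both ends. For the class I heavy chains the same median was highest in MXL1 (0.60) and MR1 (0.39) and lowest in MXL12 (-0.40) and MXL3_4 (-0.35). MXL1 was the highest library for 20 of the 39 genes and MR1 for 11, whereas MXL12 was the lowest for 13 and MR5 for 10. Which library was left out therefore moved the direction. Without MXL1, 32 of the 39 estimates were higher in FJDHF with a median log2 fold change of 0.32, without MR1 10 were higher with a median of -0.18, and without MXL12 9 were higher with a median of -0.11.

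In MR5 and MXL12, removing the GC trend changed the class I median more than the class II median. After the correction the class I median was -0.05 in MR5 (-0.32 before) and -0.02 in MXL12 (-0.40 before), but that of MXL1 was still 0.55. MR3 became the lowest library for class I, at -0.38 (-0.26 before). The class II median was still 0.83 in MR1 and -0.85 in MR5. The range across libraries shrank in 23 of the 39 genes, and in 21 of the 30 with a GC content of 50% or more, but its median only fell from 1.41 to 1.34 (log2). For Psmb10 the range fell from 2.28 to 1.34, for H2-Ab1 from 2.65 to 1.58 and for Cd74 from 2.83 to 2.13. It rose for H2-Aa from 1.72 to 1.92, for H2-Ke6 from 1.12 to 1.82 and for H2-Q2 from 0.62 to 1.41.

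H2-Aa and H2-Ab1 encode the alpha and beta chain of a single class II molecule, but their transcripts differ in GC content (46.5% and 57.3%), and the pair was picked out after its values were seen. The ratio of H2-Ab1 to H2-Aa CPM was 0.285 in MR3 and 0.339 in MXL1, the 2 libraries with the strongest tilt toward GC-rich transcripts, and 0.108 in MR5, 0.134 in MXL12 and 0.121 in MXL3_4, the 3 tilted the other way, but also 0.133 in MR4_5, which had little tilt. It spanned 3.14-fold across libraries, and 1.65-fold after GC correction.

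**Figure D4:**
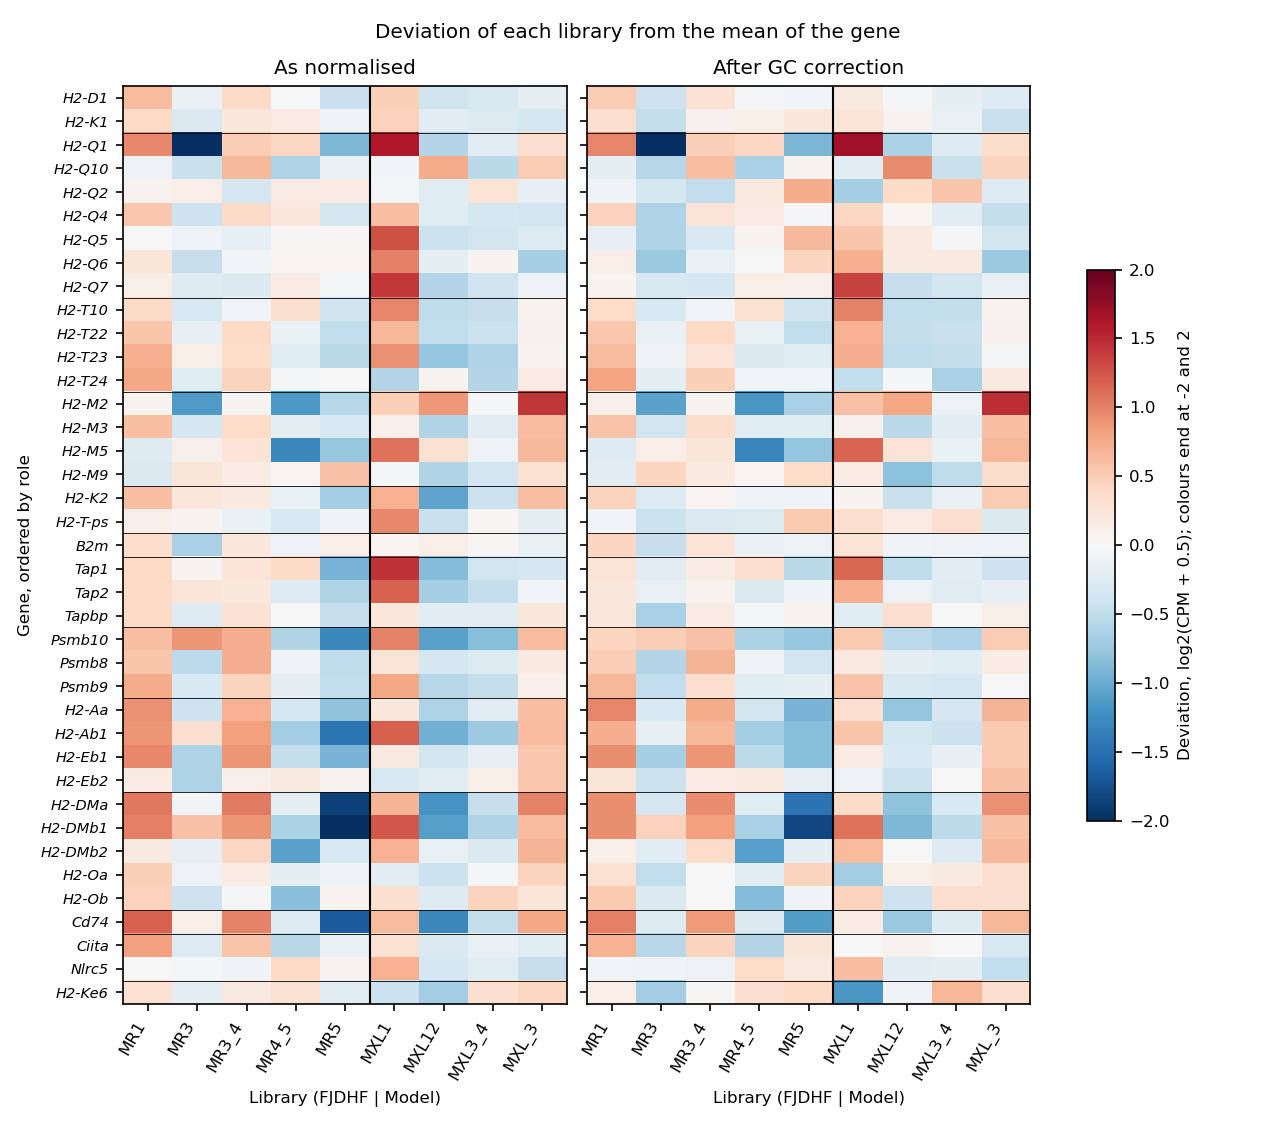
Deviation of each library from the mean of the gene, log2(CPM + 0.5), for the 39 genes in the FJDHF and Model libraries, before (left) and after (right) removal of the GC trend. Red columns for many class II genes in MR1, MR3_4 and MXL_3 and blue ones in MR5 appear in both panels. The blue of the class I genes in MR5 and MXL12 pales on the right.

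Marker levels of other cells were compared with this pattern. The 9 macrophage markers had a median deviation of 0.77 in MR1, 0.71 in MR3_4 and 0.54 in MXL_3, and of -1.03 in MXL3_4, -0.56 in MR4_5 and -0.54 in MR5. The first 3 libraries are those highest in class II, but MXL3_4, lowest in macrophage markers, was not lowest in class II. This match was not particular to macrophages. The 5 adipocyte markers were highest in the same 3 libraries (1.16 in MR3_4, 0.47 in MR1 and 0.37 in MXL_3). The 7 T cell markers were highest in MR1 (0.596) and MR3_4 (0.375). Langerhans cell markers were highest in MXL3_4 (0.619) and lowest in MR4_5 (-0.699) and MXL_3 (-0.645), with -0.038 in MR5. Dendritic cell markers were highest in MR1 (0.248) and MXL_3 (0.2) and lowest in MR4_5 (-0.32) and MR3 (-0.31). They stood at 0.117 in MR3_4 and 0.076 in MR5. All 9 macrophage markers had higher estimates in FJDHF (median 0.25), none with an unadjusted p below 0.05 by edgeR. Their summed level was 616 to 1440 CPM in FJDHF and 536 to 1335 CPM in Model. The 7 B cell markers also had higher estimates (median 0.23), at a summed 4.62 to 9.60 CPM in FJDHF and 4.09 to 8.72 CPM in Model. Ptprc, carried by all leukocytes, was highest in MXL12 (deviation 0.98), a library low in class II. The part of any of these cells in the class II values was not tested. The 7 keratinocyte markers summed to 9729 to 18550 CPM in FJDHF and 4017 to 15510 CPM in Model. Of these, 5 had higher and 2 lower estimates in FJDHF. Krt1 and Krt10 of the upper epidermis were at 1.48 ± 0.41 and 1.23 ± 0.39 (edgeR, unadjusted p = 0.00488 and 0.0108; exact permutation p = 0.0238 for both), while Krt5, Krt14, Krt15, Trp63 and Dsp lay between -0.20 and 0.20. Col3a1 of fibroblasts was at -0.57 ± 0.25 (edgeR, unadjusted p = 0.0478), but its exact permutation p was 0.0635. All had an adjusted p of 1 by edgeR. The neutrophil collagenase Mmp8 was at -1.18 ± 0.34 (unadjusted p = 0.00542, edgeR), with an exact permutation p of 0.00794. All 7 neutrophil markers had lower edgeR estimates, but MXL12 stood far above the other libraries (median deviation 2.36), MXL1 (-1.23) and MXL3_4 (-0.89) of the same group were the lowest, and the other 6 markers had exact permutation p-values of 0.175 to 0.952. Skeletal muscle markers summed to 621 to 17960 CPM in Model and 1943 to 10790 CPM in FJDHF, and with a muscle score in the fit H2-M2 had a log2 fold change of -1.65.

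The other genes of the pathways gave no called gene. None of the 6 constitutive proteasome and activator genes, the 6 class I folding and loading partners, the 9 class II maturation enzymes, the 7 factors that bind the promoter boxes, the 11 genes of the interferon-gamma axis, the 7 other MHC-like genes or the 8 T cell co-receptors and costimulators had an unadjusted p below 0.05 by edgeR. By the exact permutation test, March8 had an unadjusted p of 0.0317. The list medians lay between -0.01 and 0.10. The smallest p of each list belonged to Psmb7 (-0.17 ± 0.21), the chaperone Hspa5 (0.35 ± 0.19), the ubiquitin ligase March8 (-0.19 ± 0.11), Nfya (0.21 ± 0.13), Jak2 (-0.36 ± 0.23), Azgp1 (1.29 ± 1.11) and Cd8a (0.70 ± 0.43). Ifng itself was low, with 0 to 29 counts in FJDHF and 0 to 19 in Model.

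Relations were computed for 6 pairs of genes over the 9 libraries, and 5 are given here. They join a transactivator with 1 of its known targets, or the leukocyte marker Ptprc with H2-Ab1. Nlrc5 and H2-K1 gave r = 0.753 (exact permutation p = 0.0156, adjusted p = 0.0468 over the 6) and rho = 0.717 (adjusted exact permutation p = 0.199). Nlrc5 and Tap1 gave r = 0.771 (exact permutation p = 0.0152, adjusted p = 0.0468) and rho = 0.55 (adjusted exact permutation p = 0.199). Without MXL1 and MXL_3, the 2 libraries farthest from the median of Nlrc5, r was 0.502 and 0.545 in the 7 libraries left (adjusted exact permutation p = 0.523 for both), so neither was below the threshold there. Within the groups, as deviations from the group means, r was 0.735 and 0.783 (both with an adjusted exact permutation p of 0.0776). Without the 2 libraries then farthest, MR4_5 and MXL1, these within-group values were 0.273 and 0.15. With GC correction and the same 2 libraries left out, r was 0.611 for Nlrc5 with H2-K1 and 0.112 for Nlrc5 with Tap1. Ciita gave r = 0.658 with H2-Ab1 and 0.639 with Cd74 (both with an adjusted exact permutation p of 0.0977; rho = 0.567 for both, adjusted p = 0.199), and 0.533 and 0.276 without MR1 and MR3_4. After GC correction the 2 Ciita values fell to 0.414 and 0.336. They fell to -0.011 and -0.021 when the 2 farthest libraries, then MR1 and MR4_5, were also left out. Ptprc with H2-Ab1 gave r = -0.198 (adjusted exact permutation p = 0.617; rho = -0.15, adjusted p = 0.708). Without the 2 libraries farthest from the median of Ptprc, r was 0.171.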

How the data were processed

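Poly(A) RNA of back skin was sequenced as paired-end, dUTP strand-specific libraries on an Illumina NovaSeq. The submitters' processing notes name HISAT, StringTie, DESeq2 and mm10. Their versions, the roles of the tools and the strand setting of the counting are not given in the sources used here. The authors deposited whole-number counts for 55401 genes and FPKM for 34637. The deposited FPKM values were used for levels between genes, and the counts for all tests. A further 9 columns of counts in the FPKM table were not used.

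Counts were filtered (filterByExpr), scaled by trimmed mean of M-values and tested with edgeR 4.0.16 (robust quasi-likelihood fit, R 4.3.3), FJDHF against Model, with Benjamini-Hochberg adjustment over 20817 genes. The study's limits, a fold change of at least 2 and an adjusted p below 0.05, called no gene. The robust option was chosen after the data were seen, among several settings, because it gave the number of genes with an unadjusted p below 0.05 that an earlier analysis of these data had found. Single genes were also tested by an exact permutation test on log2(CPM + 0.5), adjusted over all genes. Intervals are 95% intervals of the fit. GC content was that of the longest GENCODE M21 transcript, in 20 bins. DESeq2 1.42.0 and limma 3.58.1 on log2(FPKM + 1) served as alternatives. Libraries held 74648669 to 79474215 counts, and the floor of 3 counts covers counting error only. Scripts were tested on simulated data. The genes, lists and rules for named genes were chosen with earlier results of these data known. Values are given for the classical chains, the light and invariant chains, editors, transactivators, transport and proteasome genes, any other member with an unadjusted p below 0.05, and among the remaining class I genes the 3 highest by FPKM and the 3 with the largest rise and fall. Of the context lists, genes with an unadjusted p below 0.05 were named, or else the gene with the smallest p. Of the marker lists, genes with an unadjusted p below 0.05 by edgeR were named. For marker lists without such a gene, the gene with the smallest p was not always named, and endothelium markers are not described. Of 6 relations between genes computed, 1 is not reported here.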

Additional observations from a re-analysis of the deposited data

Results flagged for a closer look

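Among 66 comparisons of a library with the rest of its group (30 genes, the total count, the share of counts in the MHC genes and the GC correlation), 6 had a gap to the nearest library that was large for the range of the group (Dixon's ratio above its 95% critical value), where chance gives about 3.3. In Model, MXL1 stood above the others for H2-K1 (ratio 0.8392) and H2-Q4 (ratio 0.8489). In FJDHF, MR4_5 stood high for Nlrc5 (0.7385), MR5 low for Tap1 (0.7458), MR3 low for H2-Eb2 (0.8294) and MR3_4 low for H2-Q2 (0.8321), where it had 0 counts. Without MXL1, the log2 fold change of H2-K1 was 0.39 and that of H2-Q4 was 0.45, against 0.16 and 0.15 with it.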

How the results depend on the processing

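No setting called any of the MHC genes at an adjusted p below 0.05 (smallest 0.89, without a filter on low counts), in 28 alternatives to the fit reported. Over all genes, DESeq2 called 2. The number of MHC genes with an unadjusted p below 0.05 was 1 as reported, 2 both with limma (pseudocount 1 on the FPKM) and with a muscle score in the fit (H2-M2 and H2-M5), 2 without the filter (H2-M2 and H2-M6-ps), and 1 to 2 when a library was left out, with or without GC correction. Without MR3_4 the second gene was H2-M5 and without MXL1 it was Nlrc5. With the replicate block it was 0. That fit used the 6 libraries whose codes share a number, and H2-M2 had a log2 fold change of -1.20. The correlations of deviations in the 3 pairs were 0.28, 0.139 and -0.35. Libraries without a shared number gave values from -0.654 (MR5 with MXL1) to 0.646 (MR5 with MXL12). Whether the libraries that share a number were paired therefore stays unknown. The number with an exact permutation p below 0.05 was 1, and 0 to 2 with a library left out. Without MXL1 the 2 were H2-Q5 and Nlrc5, both then higher in FJDHF, and without MXL3_4 H2-M2 and H2-M5. Over all genes, the unadjusted count of 319 became 926 without the filter, 719 without MXL1 (747 with GC correction), 668 without MXL_3 with GC correction, and 326 without the robust option. For Nlrc5 with H2-K1, r was 0.628 after GC correction, 0.735 within groups and 0.502 without the 2 farthest libraries, and for Nlrc5 with Tap1 it was 0.747, 0.783 and 0.545, no longer below an adjusted p of 0.05. On the log2 FPKM scale, with pseudocount 1, both stayed below it (r = 0.788 and 0.787, adjusted exact permutation p = 0.0349). Ptprc with H2-Ab1 turned to 0.374 after GC correction and 0.171 without the 2 farthest libraries. The cause of these changes was not tested. Of 837 single-gene estimates under an alternative, 134 had the other sign and 12 moved by more than their standard error. H2-M2, H2-M5, H2-K1, H2-D1, Ciita, H2-T24, H2-M9, H2-DMb2 and H2-Ob kept their sign in each alternative that gave a value. With 5 against 4 libraries, the width of the intervals limits what could be seen.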
